A study of Mus musculus with 8 samples.

Results

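The 6 *Dlx* genes, *Dlx1* to *Dlx6*, were examined as 3 gene pairs in oxidative reduced representation bisulfite sequencing (oxRRBS) of mouse neural precursor cells (NPCs). All CpGs listed from 5 kb upstream of the outermost transcription start site (TSS) to the end of each gene, and between the genes of a pair, were taken, which gave 421 of the 757812 CpGs listed in each of the 8 libraries. *Dlx1*-*Dlx2* held 205 of them, *Dlx3*-*Dlx4* 144 and *Dlx5*-*Dlx6* 72. A CpG entered a comparison when every library compared had at least 10 calls there, which left 380 for the comparison of oxBS libraries and 360 for that of BS libraries.

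*Dlx* genes encode homeodomain transcription factors related to *Drosophila* Distal-less. They lie in the genome as convergently transcribed pairs that share regulatory elements, some of them in the DNA between the genes. *Dlx1*, *Dlx2*, *Dlx5* and *Dlx6* act in the ventral forebrain, where they promote the formation of GABAergic neurons, whereas *Dlx3* and *Dlx4* are better known from epidermis, placenta, teeth and bone; several members also pattern the branchial arches and limbs. TET3 is a dioxygenase that oxidises 5-methylcytosine (5mC) to 5-hydroxymethylcytosine (5hmC). Bisulfite reads 5mC and 5hmC alike, so a BS library gives their sum. In an oxBS library 5hmC is first oxidised and then reads as unmethylated, so that 5mC alone remains.

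The NPCs came from A2lox.cre mouse embryonic stem cells carrying a doxycycline-inducible shRNA, directed against *Tet3* (shTet3) or non-targeting (shScr), and both groups received doxycycline at 2 µg/ml for 5 days. Each shRNA had 2 replicates, and 100 ng of DNA from each was split into a BS and an oxBS library, so 4 groups of 2 libraries were compared. The labels do not say whether the replicates were separate differentiations, and p-values from comparisons of whole libraries then measure only the spread between these samples. Those from tests of single CpGs measure counting error only. Each shRNA was carried by its own stably modified line, so an effect of the shRNA and a difference between the lines cannot be told apart. These are DNA data, so the level of *Tet3* RNA could not be checked.

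Each library held 42516767 to 61865967 calls, and the median coverage of the *Dlx* CpGs was 37 to 70 calls. In BS replicate 2 of shScr 50 of the 421 CpGs were below 10 calls, against 0 to 27 in the other libraries. As a check of cell type, the promoter of *Pax6*, a marker of radial glia-like NPCs, had an oxBS level of 41.1% and 24.5% in the shScr replicates and of 28.0% and 27.8% in those of shTet3, and that of *Nes*, which encodes nestin, was between 2.87% and 5.99% in all 4. The promoter of the pluripotency gene *Pou5f1* was between 39.4% and 48.0% methylated over only 5 CpGs, and that of *Nanog* was not covered. In replicate 1 of shScr *Pax6*, at 41.1%, was close to *Pou5f1*, at 42.3%. These levels therefore do not settle the cell type.

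Across all 662455 CpGs tested, shScr replicates had mean oxBS levels of 27.2% and 32.3%, and shTet3 replicates of 22.7% and 22.9%. Replicate 2 of shScr was the higher one over the genome. At the *Dlx* pairs the order was the opposite: replicate 1 of shScr was higher than replicate 2 in oxBS (30.8% against 26.2%) and in BS (31.1% against 25.5%). This gap between control replicates touched many of the results below, so values are given for each library.

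The sequences that carried the largest or most localised differences are shown on the mouse assembly mm9, with the gene's strand given for each. All 421 listed *Dlx* positions read CG in this assembly. Capitals mark the CpGs called in a comparison, as described with the results. Sequence around the CpG 220 bases upstream of the *Dlx2* TSS is shown because 5mC was higher there in shTet3 (chr2:71385001-71385062, minus strand). The *Dlx4* intron holds the densest run of CpGs with lower 5mC (chr11:95004366-95004540, minus strand, 19 CpGs of which 12 were called). The upstream flank of *Dlx4* holds the largest decrease of pooled calls at a single CpG of that pair (chr11:95011421-95011482, minus strand). The run in the *Dlx6* intron (chr6:6814691-6814861, plus strand, 13 CpGs) is shown because the control replicates differed most there among the stretches with at least 5 CpGs covered in all libraries, and a coding exon of *Dlx5* (chr6:6828180-6828241, minus strand) because it holds the largest pooled decrease of its pair. Between *Dlx1* and *Dlx2*, 1 window holds CpGs with lower 5mC (chr2:71376452-71376548, plus strand) and another the run with the largest, though not called, gain (chr2:71379443-71379526, plus strand).
Dlx2 promoter: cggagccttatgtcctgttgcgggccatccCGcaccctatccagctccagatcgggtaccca
Dlx4 intron: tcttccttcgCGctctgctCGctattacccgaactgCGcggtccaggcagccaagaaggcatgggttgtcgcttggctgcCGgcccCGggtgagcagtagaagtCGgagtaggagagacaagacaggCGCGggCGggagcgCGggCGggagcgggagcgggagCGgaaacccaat
Dlx4 upstream: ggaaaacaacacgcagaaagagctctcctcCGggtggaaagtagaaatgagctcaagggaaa
Dlx6 intron: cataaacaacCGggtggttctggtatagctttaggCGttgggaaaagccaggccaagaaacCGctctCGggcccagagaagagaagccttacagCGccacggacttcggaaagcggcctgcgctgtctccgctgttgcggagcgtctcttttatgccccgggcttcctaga
Dlx5 coding exon: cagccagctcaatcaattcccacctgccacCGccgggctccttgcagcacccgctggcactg
Dlx1-Dlx2, hypo-DMPs: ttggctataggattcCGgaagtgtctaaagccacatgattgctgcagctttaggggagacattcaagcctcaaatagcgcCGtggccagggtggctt
Dlx1-Dlx2, gain: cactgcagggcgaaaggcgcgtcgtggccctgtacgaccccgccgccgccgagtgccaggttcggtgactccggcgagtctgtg

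The promoters of the 6 genes were of ordinary CpG content. The ratio of observed to expected CpGs from 1 kb upstream to 0.5 kb downstream of the outermost TSS was 0.572 in *Dlx4*, 0.576 in *Dlx1*, 0.592 in *Dlx3*, 0.605 in *Dlx5* and 0.618 in *Dlx6*, with a median of 0.653 over the 12962 protein-coding promoters with a listed CpG. *Dlx2* was the most CpG-rich of the 6, with a ratio of 0.779 that exceeded 77.8% of those promoters. It also held the most CCGG sites, the cutting site of the enzyme MspI from which the libraries were made, with 11 against 4 to 6 in the other 5.

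To ask how 5mC at the *Dlx* pairs changed after *Tet3* knockdown (KD), oxBS levels were averaged over CpGs in each library. Over the 3 pairs together, shScr replicates had levels of 30.8% and 26.2%, and shTet3 replicates of 22.2% and 20.7%. Both shTet3 libraries lay below both shScr libraries, with means of 28.5% ± 3.29 (SD, n = 2) and 21.4% ± 1.09 (SD, n = 2). The difference was -7.06 percentage points (two-sided exact permutation test, p = 0.333, the smallest that 2 against 2 libraries allow). It ranged from -4.53 without replicate 1 of shScr to -9.90 without replicate 2 of shScr. The same difference over all CpGs was -6.94.

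*Dlx3*-*Dlx4* had the highest levels and the tightest difference of the 3 pairs. Its CpGs were at 40.5% and 39.1% in shScr and at 29.1% and 28.9% in shTet3, a difference of -10.8 points that was larger than the spread within either group (exact permutation test, p = 0.333). *Dlx4* contributed most of it: its level was 43.1% and 45.7% in shScr against 32.2% and 32.5% in shTet3. *Dlx3*, whose product drives terminal differentiation of the epidermis, was at 35.4% and 28.8% against 23.4% and 22.1%. The 10 CpGs between these genes were at 49.2% and 47.8% against 37.7% and 40.1%. In none of these 3 sets did the groups overlap.

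*Dlx1*-*Dlx2* was the least methylated pair. It was at 22.4% and 17.6% in shScr and at 16.4% and 15.3% in shTet3, a difference of -4.16 points with no overlap. With at least 20 calls per CpG it was -2.78, and with CpGs weighted by their calls -2.84, and in both the groups overlapped. Within the pair, *Dlx1* was lower in shTet3 oxBS, at 13.7% and 13.6% against 22.4% and 20.5%. *Dlx2*, which acts with *Dlx1* in the ganglionic eminences, did not separate in oxBS, with 20.1% and 16.1% for shScr against 16.4% and 14.5% for shTet3. The 29 CpGs between both genes, at 31.4% and 19.1% against 20.6% and 21.4%, overlapped too. Without replicate 1 of shScr the difference over the pair was -1.81 points and without replicate 2 of shScr it was -6.86.

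*Dlx5*-*Dlx6* showed the widest control spread. The shScr libraries were at 35.6% and 22.8% and those of shTet3 at 25% and 18.2%, so the groups overlapped and the difference of -7.63 points was smaller than the SD of 9.02 between the shScr replicates (exact permutation test, p = 0.667). Without replicate 1 of shScr it was -0.48 points, and without replicate 2 of shScr it was -16.0. *Dlx6* overlapped, at 41.5% and 25.8% against 29.2% and 20.4%. *Dlx5*, which is needed for bone and craniofacial development, was at 32.8% and 22.3% against 21.8% and 18.9% over only 14 CpGs.

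**Figure D1:**
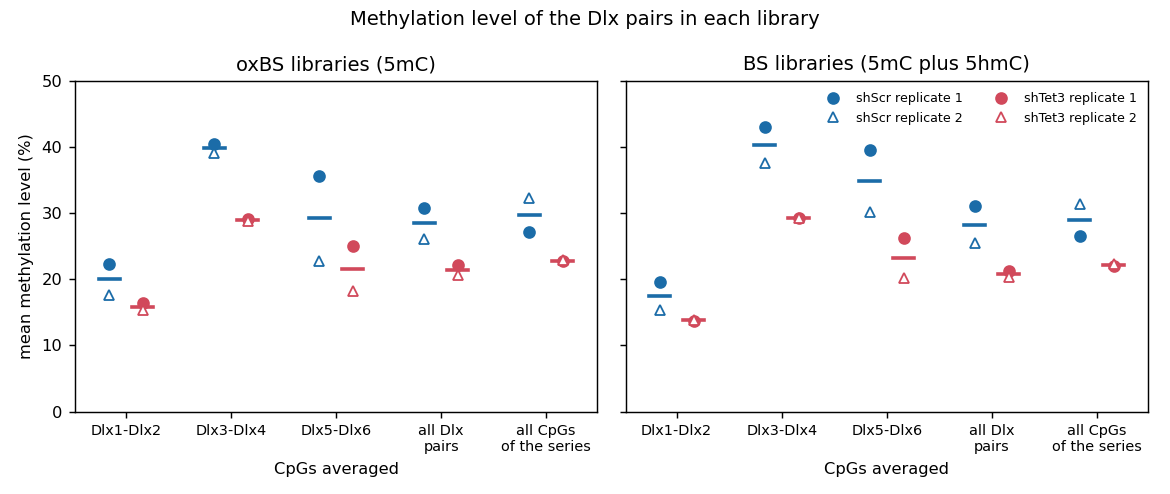
Mean methylation level (%) of each library, averaged over CpGs of each *Dlx* pair, of all 3 pairs and of the whole series, in oxBS (left) and BS (right). Filled circles are replicate 1, open triangles replicate 2 and bars the mean of 2; replicate 1 of shScr is above replicate 2 in every *Dlx* set and below it over all CpGs, and *Dlx3*-*Dlx4* shows the clearest gap between shRNAs in oxBS.

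The same contrast in the BS libraries, made from the other part of the same DNA, gave the sum of 5mC and 5hmC. Over the 3 pairs the level was 31.1% and 25.5% in shScr and 21.2% and 20.3% in shTet3, a difference of -7.52 points with no overlap (exact permutation test, p = 0.333). *Dlx1*-*Dlx2* was at 19.6% and 15.3% against 13.7% and 13.9%, and its groups overlapped when CpGs were weighted by their calls (-3.31 points). Here *Dlx1* overlapped, at 14.7% and 8.94% against 8.28% and 9.73%, and *Dlx2* did not, at 19.4% and 17.4% against 14% in both, the reverse of oxBS. For *Dlx1* the CpGs were not the same, with 33 covered in BS and 46 in oxBS. Over those 33 the shScr oxBS levels were only 10.5% and 10.6%, so the kinds of library were not compared on like sets. *Dlx3*-*Dlx4* was at 43.0% and 37.6% against 29.4% and 29.2%. *Dlx5*-*Dlx6* did not overlap in BS, at 39.6% and 30.1% against 26.3% and 20.3%. Its difference of -11.6 points became -5.33, with overlapping groups, when CpGs were weighted by their calls. Since each BS library shares its DNA with an oxBS library, these are not independent replicates of the oxBS result.

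Levels varied with the distance from the start site. Within 500 bases upstream of a TSS the mean oxBS level was 4.61% and 3.17% in shScr and 2.45% and 2.13% in shTet3. It rose to 40.7% and 34.6% in shScr, against 28.5% and 27.1% in shTet3, from 2000 to 5000 bases downstream. The distal upstream flank, from 5000 to 1000 bases before a TSS, was highly methylated, at 50.2% and 58.2% against 39.9% and 39.1%. Here replicate 2 of shScr was the higher one, as over the genome. The 26 CpGs in the *Dlx1* 5′ UTR were nearly unmethylated, at 0.11% to 0.34% in all 4 libraries, and the 9 in its 3′ UTR were at 58.3% and 53.5% against 35.7% and 32.7%.

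The promoters, taken from 1 kb upstream to 0.5 kb downstream of the start of each coding transcript, held 118 of the 380 CpGs. Their mean was 7.54% and 7.19% in shScr and 4.96% and 5.33% in shTet3, which did not overlap. The *Dlx3* promoter was the most methylated, at 20.6% and 19.9% against 12.6% and 14.7%. The *Dlx2* promoter was at 0.88% to 1.80% and the *Dlx6* promoter at 0.00% to 1.14% in all 4 libraries. Outside promoters, 262 CpGs were at 41.3% and 34.7% against 30% and 27.6%.

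**Figure D2:**
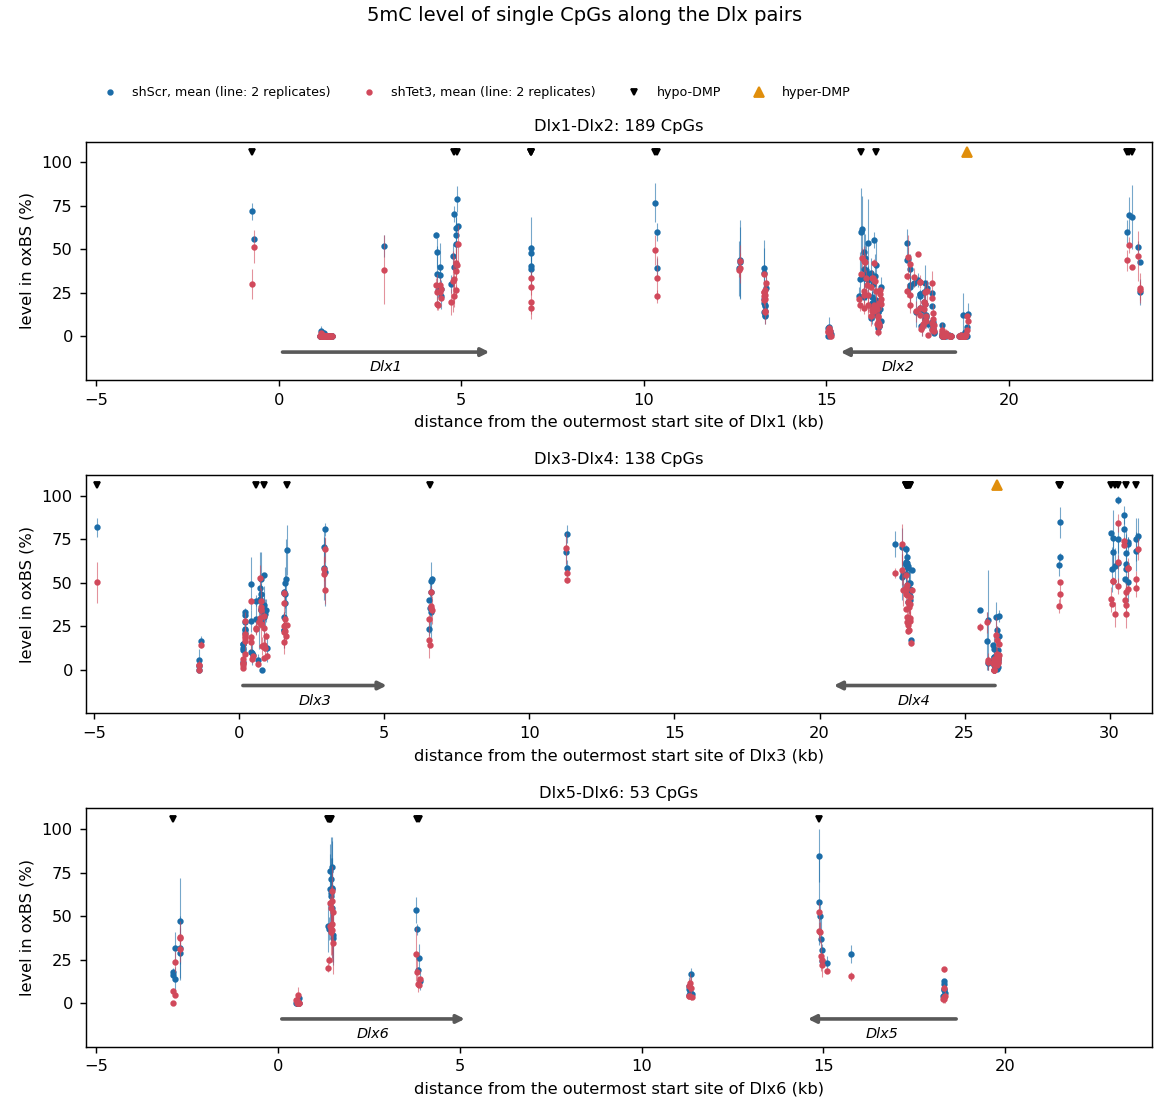
Level of each CpG in the oxBS libraries (%) along the 3 pairs, against the distance in kb from the outermost start site of the left gene; points are group means, vertical lines join the 2 replicates and grey arrows show the genes in their direction of transcription. Black triangles mark the 47 CpGs called lower and orange triangles the 2 called higher in shTet3. Most black triangles stand over introns and flanks, which were more methylated in shScr than the 5′ UTRs.

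Next, single CpGs were tested. A differentially methylated position (DMP) was a CpG with a Benjamini-Hochberg adjusted p below 0.01, over all CpGs of the series, by a binomial likelihood-ratio test on the calls, and a pooled difference above 10 percentage points. This test takes calls as independent and does not see the spread between replicates. At the *Dlx* pairs 47 of 380 CpGs were hypo-DMPs, 12.4%, against a background of 13.9% of all CpGs tested, and 2 were hyper-DMPs, against 0.0814%. Thus the share with lower 5mC was close to that of the genome. In 116 of the 380 both shTet3 libraries were below both shScr libraries and in 23 both were above, against 26.3% and 2.04% of all CpGs. Of the 47 hypo-DMPs, 43 also had no overlap between replicates.

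The pairs differed in their counts. *Dlx3*-*Dlx4* had 25 hypo-DMPs among 138 CpGs (18.1%), *Dlx5*-*Dlx6* 9 among 53 (17.0%) and *Dlx1*-*Dlx2* 13 among 189 (6.88%). *Dlx4* alone had 20 of 73 and *Dlx6* 8 of 33, whereas *Dlx2* had 5 of 114, *Dlx3* 4 of 55, *Dlx1* 3 of 46 and *Dlx5* 1 of 14. By annotation, 19 of 82 CpGs in introns were called (23.2%), 14 of 66 in upstream flanks (21.2%) and 6 of 45 between genes (13.3%). In coding exons it was 4 of 67 (5.97%) and in 3′ UTRs 4 of 36 (11.1%), against 13.9% of all CpGs tested. None of the 66 in 5′ UTRs was called. These averaged 6.87% and 7.33% in shScr, which left little room for a fall of 10 points. The promoters held 1 hypo-DMP and both hyper-DMPs. A single run of neighbouring CpGs in the *Dlx4* intron, 345 bases long with 24 CpGs tested, held 12 hypo-DMPs. These 12 are part of the 25 in *Dlx3*-*Dlx4* and of the 19 in introns, so both shares rest largely on 1 run. In the introns of *Dlx3* 2 of 32 CpGs were called (6.25%) and in those of *Dlx6* 5 of 21 (23.8%). The total count depended on single libraries: it was 26 without replicate 1 of shScr, 24 without replicate 1 of shTet3, 31 without replicate 2 of shTet3 and 53 without replicate 2 of shScr.

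The 111 *Dlx* CpGs above 40% in the BS libraries of shScr were also taken apart, a choice that does not use the oxBS libraries although it uses the same DNA. In oxBS they were at 58.9% and 51.0% (shScr) against 43.3% and 38.6% (shTet3). The difference was -14.0 points, against -16.8 for all CpGs chosen this way. Of the 111, 30 were hypo-DMPs (27.0%), against 36.9% of 220953 CpGs over the series, and 0 were hyper-DMPs, against 0.0643%. In *Dlx3*-*Dlx4* it was 19 of 64. Over all tested CpGs, 31.8% at the *Dlx* pairs and 37.1% in the series were above 40% in the oxBS libraries of shScr, and 32.4% and 54.1% were below 10%; the *Dlx* pairs held a smaller share at both ends.

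Both hyper-DMPs lay within 220 bases of a start site, in promoters that were otherwise low. The first, at position 71385031 of chromosome 2, is the CpG in capitals in the *Dlx2* promoter sequence. No methylated call was seen in shScr, in 41 and 47 calls, which allows up to 8.57% and 7.56% (95% Wilson interval, for counting error only), and 10.7% and 12.7% were methylated in shTet3, in 84 and 55 calls (binomial likelihood-ratio test, adjusted p = 0.000651). In BS the order was not the same: 13.5% and 4.65% in shScr and 3.8% and 6.25% in shTet3 (binomial likelihood-ratio test, adjusted p = 0.517).

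The second hyper-DMP, at position 95007520 of chromosome 11, lies 57 bases into the *Dlx4* 5′ UTR, under the noncoding gene *A730090H04Rik* as well. It was at 1.49% and 0.00% in the shScr oxBS libraries and at 8.99% and 25% in those of shTet3 (binomial likelihood-ratio test, adjusted p = 0.000611). In BS it was at 12.7% and 5.26% against 3.92% and 6.67% (binomial likelihood-ratio test, adjusted p = 0.471). At both sites, then, the oxBS libraries of shScr read lower than the BS libraries of the same DNA (binomial likelihood-ratio test, adjusted p = 0.0544 and 0.0971 for BS against oxBS), and the BS means were not higher in shTet3. The sites were chosen with these same oxBS libraries, so this comparison is biased by the choice. In shTet3 the sign was opposite, with pooled BS minus oxBS of -7.01 and -9.66 points (binomial likelihood-ratio test, adjusted p = 0.519 and 0.407). Whether the change differed between the kinds of library was not itself tested. Without replicate 2 of shScr no hyper-DMP was called in *Dlx1*-*Dlx2*, and without replicate 1 of shScr or replicate 2 of shTet3 none was called in *Dlx3*-*Dlx4*.

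The hypo-DMPs with the largest pooled differences in *Dlx3*-*Dlx4* were spread over the upstream flank and intron of *Dlx4* and an exon of *Dlx3*. Position 95011451 of chromosome 11, in capitals in the *Dlx4* upstream sequence, was at 80.0% and 76.9% in shScr and at 33.3% and 47.6% in shTet3, in 13 to 48 calls (binomial likelihood-ratio test, adjusted p = 0.00192). It was also called in BS, at 66.7% and 71.4% against 42.3% and 29.0% (binomial likelihood-ratio test, adjusted p = 0.00585). Position 95009675, nearer the gene, was at 75.8% and 93.8% against 50% and 50.9% in oxBS and was called in BS too, at 62.5% and 87.3% against 55.7% and 49.1%.

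In the *Dlx4* intron the CpGs named for their oxBS difference had a smaller difference in BS. A smaller one is partly expected from the choice, and whether the change differed between the kinds of library was not tested. Position 95004435 was at 60.2% and 57.4% in the shScr oxBS libraries and at 24.8% and 26.6% in those of shTet3 (binomial likelihood-ratio test, adjusted p = 1e-07), but at 50% and 48.9% against 47.0% and 40.7% in BS (binomial likelihood-ratio test, adjusted p = 0.694). The nearby position 95004412 was at 64.5% and 53.6% against 28.7% and 26.2% in oxBS and at 48.3% and 48.4% against 48.5% and 28.6% in BS. The *Dlx3* exon CpG at 94983040 was at 83.3% and 54.5% against 25.5% and 25.8% in oxBS, and overlapped in BS, at 69.2% and 21.7% against 26.2% and 42.9%.

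In *Dlx5*-*Dlx6* the largest decrease was in a coding exon of *Dlx5*. Position 6828210 of chromosome 6 was at 100.0% and 69.7% in shScr and at 47.1% and 58.1% in shTet3 (binomial likelihood-ratio test, adjusted p = 2.03e-06), and in BS at 92.5% and 67.4% against 57.1% and 42.4% (binomial likelihood-ratio test, adjusted p = 0.000116). It was the single CpG called in *Dlx5*, and was called in both kinds of library. Position 6817149, in a coding exon of *Dlx6*, was at 39.3% and 45.8% against 25.6% and 10.4%. The other 3 named CpGs of the pair, at 6814701, 6814758 and 6814785, stood together in the *Dlx6* intron. They ranged from 59.0% to 85.5% in replicate 1 of shScr, from 29.5% to 47.0% in replicate 2 of shScr and from 17.7% to 45.0% in the shTet3 libraries. The *Dlx6* CpGs also lie under *Dlx6os1*, a long noncoding RNA gene on the opposite strand that covers all 33 of them.

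In *Dlx1*-*Dlx2* the largest decreases were in the *Dlx1* promoter, its 3′ UTR and the DNA between the genes. Position 71365439 of chromosome 2, 731 bases before the *Dlx1* TSS, was at 66.7% and 76.9% in shScr and at 38.5% and 21.4% in shTet3, in 13 to 24 calls (binomial likelihood-ratio test, adjusted p = 0.00812). Positions 71376532 and 71376467, both in capitals in the sequence from between the genes, were at 65.5% and 54.8% against 19.2% and 26.9%, and at 88.0% and 65.5% against 40.8% and 58.3%. Replicate 2 of shScr BS had 5 to 9 calls at these 3 CpGs, below the minimum, so none was tested in BS. In the *Dlx1* 3′ UTR, which the antisense gene *Dlx1as* overlaps, position 71371054 was at 71.4% and 86.4% against 40.6% and 41.2%, and 71370962 at 66.0% and 75% against 46.3% and 19.4%.

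The CpGs called in oxBS were then followed in BS. Of the 47 hypo-DMPs, 41 were covered in BS, where 35 were lower and 6 higher in shTet3 by the mean of 2 replicates, and 14 were also called. The median pooled difference of all 47 was -22.5 points in oxBS, which chose them. In BS the median difference of replicate means was -10.1 over the 41 covered, so measure and set were not the same. Of the 6 that were higher in BS, 5 were in *Dlx3*-*Dlx4*. Tested on their own, the BS libraries gave 41 CpGs lower of 360 (11.4%, against a background of 13.8% of all CpGs) and 0 higher (background 0.0621%; 1 at an unadjusted p below 0.05 with the same difference, and 0 by Fisher's exact test). At 120 of the 360 both shTet3 libraries were below both shScr libraries in BS and at 4 both were above, against 26.1% and 1.96% of all CpGs. *Dlx3*-*Dlx4* held 27 of the 41 called, *Dlx1*-*Dlx2* 10 and *Dlx5*-*Dlx6* 4. The count was 23 without replicate 1 of shScr, 27 without replicate 1 of shTet3 and 20 without replicate 2 of shTet3, and without replicate 1 of shScr 2 CpGs were called higher.

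**Figure D3:**
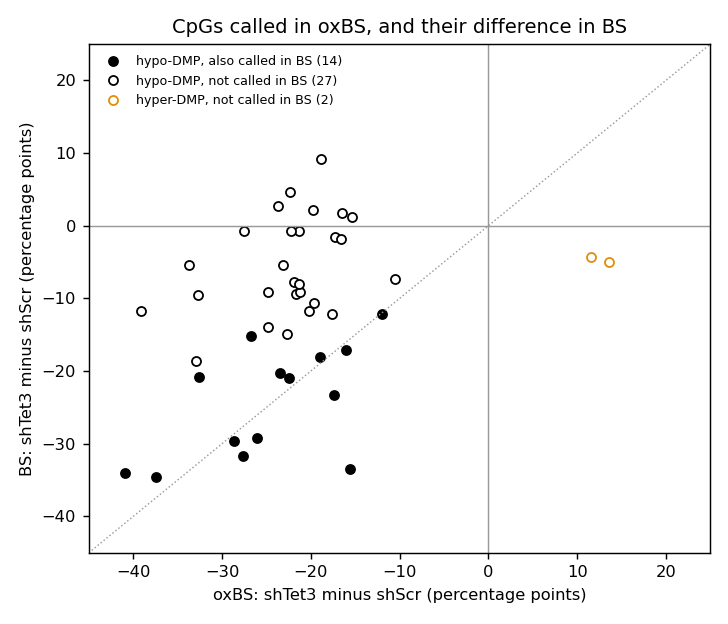
Difference between shTet3 and shScr at CpGs called in oxBS, in oxBS (horizontal) and in BS (vertical), as pooled differences in percentage points; filled points were also called in BS and the dotted line marks equal differences. Of 41 hypo-DMPs covered in BS 14 are filled, and both hyper-DMPs lie below 0 in BS.

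CpGs less than 100 bases apart were joined into 47 stretches, of which 22 had at least 5 CpGs covered in all 8 libraries. The mean oxBS level was lower in shTet3 in 19 of the 22, and in 11 both shTet3 libraries were below both shScr libraries, against 0 with both above. In BS 20 were lower, 12 of them without overlap. The 3 with the largest loss were all in *Dlx4*. The stretch 3754 to 4128 bases upstream, with 8 CpGs, was at 63.7% and 79.7% in shScr and at 50.4% and 51.4% in shTet3, a difference of -20.8 points in oxBS and of -12.2 in BS.

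The *Dlx4* intron stretch, with 21 such CpGs, was at 55.5% and 48.3% against 34.8% and 37.3% in oxBS, and at 52.6% and 45.2% against 43.4% and 42.4% in BS. The loss there was -15.9 points in oxBS and -5.99 in BS, without overlap in either. It held 12 of the 47 hypo-DMPs, all in the printed sequence. The other upstream stretch of *Dlx4*, with 9 CpGs, was at 61.2% and 73.2% against 52.6% and 50.5%, and its loss of -15.7 points in oxBS was -20.5 in BS.

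At the other end, none of these 22 stretches had both shTet3 libraries above both shScr libraries. A stretch of 8 CpGs in the *Dlx6* intron, not among the 22 because replicate 1 of shTet3 BS had 5 or 6 calls at each, did, at 0.00% and 0.74% against 0.98% and 1.14% in oxBS. The largest gain among the 22, of 2.77 points, was in the 11 CpGs of the second printed sequence from between *Dlx1* and *Dlx2*, at 26.4% and 15.9% in shScr and at 21.3% and 26.6% in shTet3. It was 1.89 points in BS. The next of the 22 was 0.12 points, over 13 CpGs at the start of the *Dlx2* coding sequence that were at 0.11% to 1.46% in the 4 oxBS libraries. The third of the 22 was 0.06 points over 8 CpGs just downstream of *Dlx2*, at 1.42% to 3.43%.

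The stretches also showed where the shScr replicates parted. Their gap had a median of 7.44 points over the 22 stretches in oxBS, against 1.74 between the shTet3 replicates. Replicate 1 of shScr was higher in 14 stretches in oxBS and in 16 in BS, and the sign was the same in both kinds of library in 16. The widest gap among the 22, chosen here for its size, was in the *Dlx6* intron: its 13 CpGs were at 77.6% and 40.4% in shScr and at 54.4% and 35.5% in shTet3, and in BS at 71.5% and 54.6% against 51.3% and 43.3%. Replicate 1 of shScr was the higher one in both kinds of library, and the groups overlapped in oxBS. Replicate 2 of shScr was the higher one in both upstream stretches of *Dlx4*. What set the control replicates apart was not tested.

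**Figure D4:**
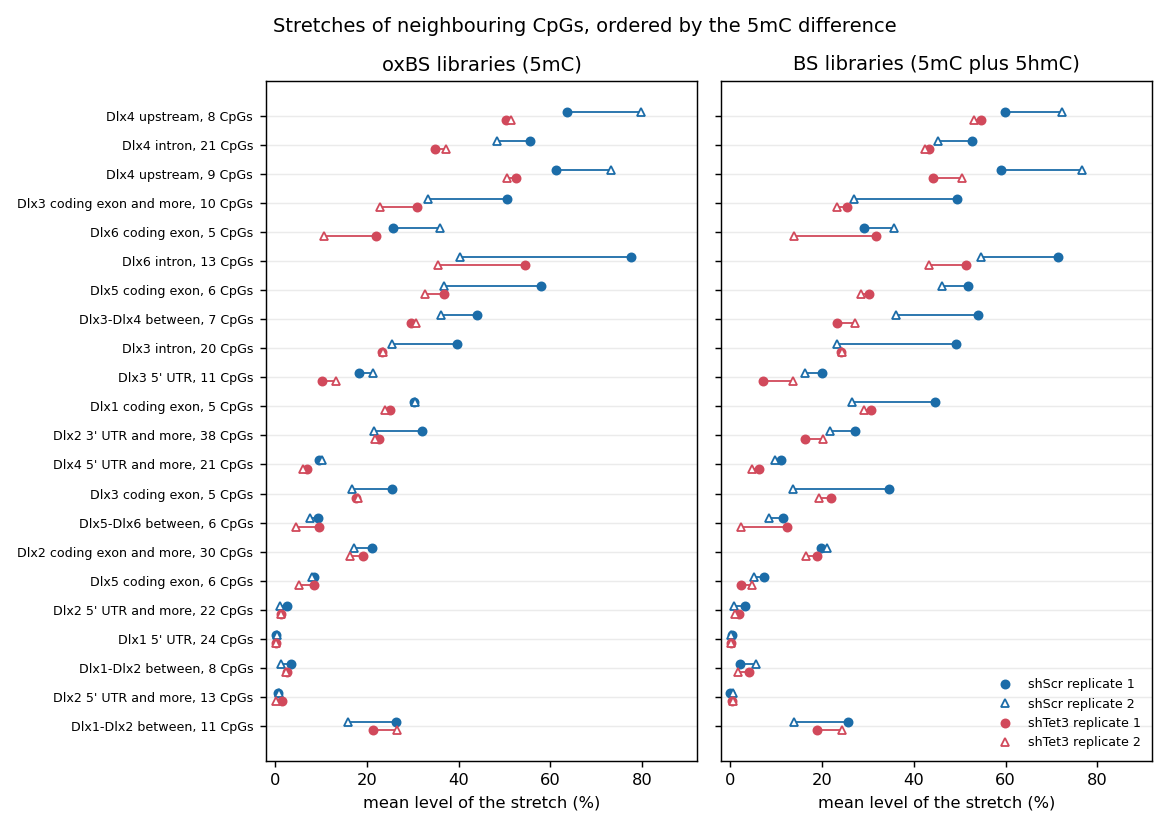
Mean level (%) of the 22 stretches in oxBS (left) and BS (right), ordered from the largest 5mC loss at the top to the largest gain at the bottom; circles are replicate 1, triangles replicate 2 and lines join the replicates of an shRNA. The 3 stretches at the top belong to *Dlx4*, and the longest blue line in oxBS is that of the *Dlx6* intron.

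BS minus oxBS within an shRNA estimates 5hmC. Over 348 CpGs covered in shScr the level was 30.3% and 25.4% in BS and 29.9% and 24.8% in oxBS, a difference of 0.51 points (unpaired exact permutation test, p = 0.667). BS was the higher one in both replicates, and the paired exact permutation test, which respects the shared DNA, gave p = 0.5, the smallest that 2 pairs allow. Over 379 CpGs in shTet3 it was 21.9% and 20.7% against 22.4% and 20.6%, a difference of -0.23 with opposite signs in the replicates. In shScr 1 CpG was called with BS above oxBS (background 0.33%) and 0 below (background 0.17%; 13 at an unadjusted p below 0.05). In shTet3 0 were called above (background 0.0239%; 13 at an unadjusted p below 0.05) and 0 below (background 0.0141%; 18). In shScr both BS libraries were above both oxBS libraries at 36 CpGs and below them at 24 (background 6.54% and 5.16%), and in shTet3 at 47 and 56 (background 8.76% and 7.19%). With 2 pairs of libraries, neither mean difference could be shown to differ from 0.

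The CpG called with BS above oxBS was 4956 bases upstream of *Dlx2*, at position 71389767 of chromosome 2 (chr2:71389737-71389798, minus strand, called CpG in capitals).
Dlx2 upstream: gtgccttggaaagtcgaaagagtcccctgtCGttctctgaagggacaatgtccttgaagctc
It was at 42.5% and 56.0% in BS and at 18.3% and 32.9% in oxBS in shScr, in 70 to 146 calls (binomial likelihood-ratio test, adjusted p = 0.00261). In shTet3 it was at 37.0% and 14.8% in BS and at 32.1% and 21.0% in oxBS. The contrast of shRNAs in BS reuses the shScr BS libraries that picked this CpG, so a lower level in shTet3 is partly expected from the choice. With that limit, the BS level was lower in shTet3 (binomial likelihood-ratio test, adjusted p = 0.00237), whereas the oxBS levels overlapped. Leaving out replicate 2 of shScr BS gave 9 such CpGs in the pairs, and leaving out replicate 2 of shScr oxBS gave 5 above and 11 below.

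The loss at the *Dlx* pairs was compared with that at other homeobox loci. The 39 genes of the Hox clusters held 1981 CpGs, at 22.2% and 18.4% in shScr and at 15.8% and 15.6% in shTet3, and 7.47% were hypo-DMPs. A set of 15 other patterning homeobox genes held 1469, at 20.4% and 17.8% against 14.7% and 15.1%, with 8.33% hypo-DMPs. Both sets shared the order of the control replicates seen at *Dlx*. The gap between *Dlx* and Hox narrowed from 8.63 and 7.78 points in shScr to 6.38 and 5.09 in shTet3, a change of -2.47 (exact permutation test on the gaps, p = 0.333, the smallest possible), and that to the patterning genes changed by -2.86 without overlap. Both gaps in shTet3 were thus smaller than both in shScr. Against all other CpGs the change was -0.12 with overlapping libraries. For *Dlx3*-*Dlx4* alone it was -3.87 against all other CpGs and -6.22 against Hox, both without overlap. *Dlx1*-*Dlx2* changed by 2.78 and 0.43 and *Dlx5*-*Dlx6* by -0.69 and -3.04 against the same sets, with overlapping libraries, so the narrowing was not shared by all pairs. *Dlx3*-*Dlx4* was also more methylated in shScr, with 50.7% of its CpGs above 40% in oxBS, against 37.1% of all CpGs. Among CpGs above 40% in shScr BS, its oxBS difference was -16.3 points, against -16.8 for all CpGs. Of these, 29.7% were hypo-DMPs in *Dlx3*-*Dlx4* and 36.9% in the series.

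The genes with the most similar levels over the 8 libraries were sought among 10082 protein-coding genes. For *Dlx1*-*Dlx2* they were *Lhx8*, with a mean absolute difference of 0.91 points, *Tbx15* at 0.92 and *Prdm12* at 0.96, which is nearly a tie. For *Dlx3*-*Dlx4* they were *Ebf2* at 1.19 points, *Arpp21* and *Rgma*. For *Dlx5*-*Dlx6* they were *Gad1* at 2.34 points, then *Gsc* and *Gm10000* at 2.52, which share the same CpGs. The ranking used mean levels only, and a link to gene function was not tested.

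Promoters of genes from the systems in which *Dlx* factors act were followed in the oxBS libraries. Of the ventral forebrain regulators 10 of 14 were covered, 1 had a hypo-DMP (10%) and 2 a hyper-DMP. Of the GABAergic interneuron genes 18 of 22 were covered, 7 had a hypo-DMP (38.9%) and 1 a hyper-DMP. Of the branchial arch, limb and bone genes 13 of 17 were covered, 7 had a hypo-DMP (53.8%) and 0 a hyper-DMP. Among all 13343 covered promoters 19.7% had a hypo-DMP, 6.33% at least 3 and 0.899% a hyper-DMP. The median level in shScr was 3.41%, 7.28% and 4.49% in the 3 lists and 0.54% over all promoters, so the starting levels were unlike. Whether the shares with a hypo-DMP differed beyond this was not tested. The median difference was -0.18, -0.78 and -0.27 points in the 3 lists and -0.13 over all promoters.

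*Runx2*, the regulator of osteoblast formation, had 3 hypo-DMPs among the 99 CpGs of its promoter, at 3.28% and 3.10% in shScr and at 2.29% and 3.47% in shTet3. The promoters with a hyper-DMP were those of *Gsx2*, at 4.39% and 4.77% against 4.61% and 6.16%, of *Otx2*, at 26.0% and 19.4% against 24.9% in both, and of *Lhx6*, a regulator of cortical interneurons, at 7.42% and 8.99% against 6.53% and 5.74%. The mean level separated the groups in *Lhx6*, where it was lower in shTet3, and overlapped in *Runx2*, *Gsx2* and *Otx2*.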

How the data were processed

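Genomic DNA of NPCs was cut with MspI and made into BS and oxBS libraries. The authors trimmed reads with Trim Galore, aligned them to mm9 with Bismark and exported CpG calls with methylKit; versions are not given in the sources used here. The deposited files hold, per the file headers, for each CpG a coverage count (reads giving a call) and what percent of them read C and T; every listed CpG had at least 5 calls in all 8 libraries. Methylated calls came out as whole numbers. Depth limits precision, and intervals cover counting error only, since the protocols name no molecular identifiers.

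CpGs were annotated with GENCODE vM1. A level is the unweighted mean over CpGs with at least 10 calls in each library compared. DMPs were called with a binomial likelihood-ratio test (logistic regression on the calls, without overdispersion) and Benjamini-Hochberg adjustment over all CpGs tested (adjusted p below 0.01, pooled difference above 10 percentage points). Levels were compared by two-sided exact permutation of libraries. The tests were run on simulated calls with known changes, drawn without any spread between replicates. That check cannot show how the calls hold under the spread between replicates seen here.

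Named in each pair were every hyper-DMP up to 5, the 5 hypo-DMPs with the largest pooled difference, the largest called BS against oxBS difference of each shRNA and direction, the 3 stretches with the largest loss and the 3 with the largest gain over all pairs, the 3 genes most alike (at least 20 CpGs), and list genes with at least 3 hypo-DMPs or 1 hyper-DMP. An item that this rule names is not reported here. The members and lists were chosen with earlier results of these data known. BS and oxBS libraries of a replicate are pairs by construction: their replicate differences correlated across all CpGs with r = 0.517 in shScr and 0.260 in shTet3. At the *Dlx* pairs r was 0.517 in shScr and 0.160 in shTet3, the latter close to the 0.157 between shRNAs in oxBS. Alternatives were other coverage limits, weights, tests, windows, a replicate block and leaving out each library. Python 3.11.15, numpy 2.4.6, scipy 1.17.1 and pandas 2.3.3 were used.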

Additional observations from a re-analysis of the deposited data

How the results depend on the processing

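Across the alternatives tried, the mean differences between shTet3 and shScr kept their sign in every pair, in oxBS and in BS. Leaving out 1 library moved the oxBS difference between -9.90 and -4.53 percentage points over the 3 pairs, between -6.86 and -1.81 in *Dlx1*-*Dlx2*, between -11.6 and -10.1 in *Dlx3*-*Dlx4* and between -16.0 and -0.48 in *Dlx5*-*Dlx6*, and the BS difference between -10.2 and -4.74, between -6.28 and -1.51, between -12.9 and -8.29 and between -16.0 and -6.71. Weighting CpGs by calls gave overlapping groups for *Dlx1*-*Dlx2* in oxBS (-2.84) and BS (-3.31), as did a minimum of 20 calls in oxBS (-2.78). It gave -11.7 for *Dlx3*-*Dlx4* in oxBS, -5.33 for *Dlx5*-*Dlx6* in BS and 1.5 for BS minus oxBS of *Dlx3*-*Dlx4* in shTet3. A region from 1 kb upstream gave -9.25 for *Dlx3*-*Dlx4* in oxBS.

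The count of hypo-DMPs in oxBS was 24 to 53 and of hyper-DMPs 1 to 2 when 1 library was left out, and that of CpGs called in BS 20 to 39 lower and 0 to 2 higher. A difference above 20 points gave 0 hyper-DMPs in oxBS and 26 CpGs lower in BS, and the region from 1 kb upstream 25 lower in BS. An F test with overdispersion gave 0 lower and 0 higher in oxBS and 0 lower in BS; it has 2 residual degrees of freedom and made no call on test data with known differences either, so this count says nothing about stability. BS minus oxBS changed sign in all pairs under some alternative: without 1 library it was -2.58 to 3.32 over the pairs, -2.35 to 2.96, -3.14 to 2.43 and -5.95 to 10.5 points in shScr for *Dlx1*-*Dlx2*, *Dlx3*-*Dlx4* and *Dlx5*-*Dlx6*, and -1.28 to 0.64, -1.88 to 0.86, -0.14 to 0.47 and -3.37 to 2.40 in shTet3. CpGs called above then numbered 2 to 9 in shScr and 0 to 2 in shTet3, and below 1 to 11 and 0 to 1; the region from 1 kb upstream gave 0 above in shScr. For BS minus oxBS, each left-out library set 1 replicate of 1 kind against both of the other. This breaks the pairing, and the gap between replicates then enters these values. The causes of these moves were not tested.

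With the replicate block, that is with pairing by number, the counts were 51 hypo-DMPs and 2 hyper-DMPs in oxBS and 42 lower and 0 higher in BS; it left the calls of BS against oxBS at 1 above in shScr and 0 otherwise, and changed no call on the means, whose smallest p is then 0.5. Between shRNAs the samples share only a number (r between replicate differences across CpGs was -0.0409 over all CpGs and 0.157 at the *Dlx* pairs in oxBS, and -0.0343 and -0.0265 in BS). The 2 replicates per group and the coverage, which fell below 10 calls at up to 50 *Dlx* CpGs in 1 library, limit what these tests can show.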
